A study of Saccharomyces cerevisiae with 18 samples.

Results

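Budding yeast ferments glucose while it lasts and then changes to respiration of the ethanol it has made. The genes for that second mode of growth, which code for the respiratory chain, the citric acid cycle, gluconeogenesis and the use of ethanol, acetate and fatty acids, are kept low in glucose and are switched on by a small set of transcriptional activators once glucose is gone. Hap2, Hap3 and Hap5 together form a DNA-binding complex for respiratory promoters, and Hap4 is the subunit that gives this complex its activating domain. Cat8 and Sip4 are zinc cluster proteins that bind the carbon source-responsive elements of gluconeogenic genes, and Adr1 is a zinc finger protein that activates genes for ethanol and fatty acid use. Their activity is tied to the Snf1 kinase, the yeast AMP-activated kinase.

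The 7 genes that code for these activators, HAP2, HAP3, HAP4, HAP5, CAT8, ADR1 and SIP4, were chosen by name out of 5271 named genes tested. Each of the 7 had 1 probe printed in 2 spots, and the 2 spots were averaged. No gene was removed for low signal, and both spots of the 7 probes were above background in both channels on the 18 arrays. Wild-type cells labelled wt-matA, from 2 cultures (a and b) that had used up their glucose, were moved into fresh glucose medium. Each culture was sampled directly after the move (0 min), early on (3, 7.5, 15 and 30 min) and later (60, 110 and 150 min, and last at 300 min). Each RNA was set on a two-colour array against RNA of a common wild-type reference (refpool), which the series' design text traces to 1 culture and the study's methods to several, so a value is the log2 ratio of sample over reference. The labels give strain BY4742, a MATalpha strain, for both sides. In the 16 arrays from 3 min on, 7 a-cell genes averaged log2 ratios between 3.08 and 4.09, and 4 alpha-cell genes averaged between -5.06 and -4.24, so that the samples went with the mating type of their wt-matA label and not with that of BY4742.

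One array stood apart from its label. For the culture a array at 0 min the labels put the sample in Cy5, as they do for culture b, although the protocol swaps the dyes between replicates. As labelled, the 2 arrays at 0 min correlated at r = -0.92 over the genes tested, against 0.61 to 0.97 for the 2 cultures at the later times. The a-cell genes averaged -2.3 on it and 2.33 on the culture b array at 0 min. The values below were computed with the log2 ratios of this array negated, and the comparisons with 0 min are also given with the array as labelled and with it left out. Comparisons between later times hold no 0 min value in their difference. Once the array is turned, culture a is in Cy3 and culture b in Cy5 at each of the 9 times, so culture and dye cannot be told apart.

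In glucose-depleted cells the mRNA of the 7 activators was above the reference in both cultures. By 3 min in fresh medium HAP4, CAT8, ADR1, SIP4 and HAP2 had fallen with this array turned or left out. HAP3 and HAP5 did not pass both thresholds with it turned. From there the genes took different courses. CAT8 and SIP4 stood at intermediate levels up to 15 min and fell a second time by 30 min. HAP4 had its highest values after 0 min at 30 min, a difference from 15 min that did not pass the test, and then fell by 60 min. At 300 min the ratios of the 7 genes lay between -0.28 and 0.34.

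**Figure D1:**
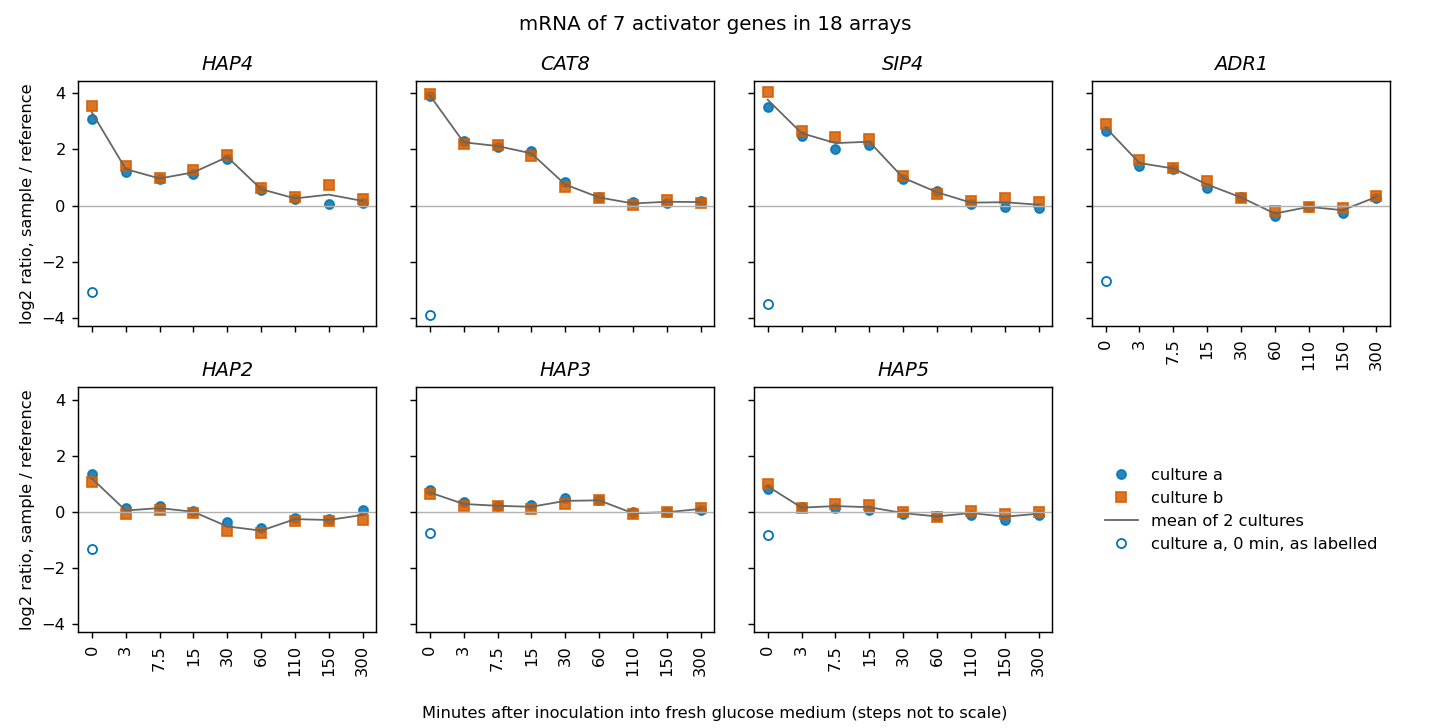
Log2 ratio of sample over reference (y axis) for the 7 genes at the 9 times (x axis, in minutes, not to scale). Filled points are culture a, squares are culture b, the line joins the means of the 2 cultures, and the open point is the culture a array at 0 min as labelled. HAP4 is higher at 30 min (1.67 and 1.79) than at 3 to 15 min. CAT8 and SIP4 have dropped to between 0.66 and 1.04 at 30 min.

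HAP4, whose level limits the activity of the Hap complex in glucose, had log2 ratios of 3.09 (culture a) and 3.55 (culture b) at 0 min, the first being -3.09 as labelled. At 3 min the ratios were 1.19 and 1.41, at 7.5 min 0.96 and 0.97, and at 15 min 1.12 and 1.25. Both cultures then stood at 1.67 and 1.79 at 30 min, above every value from 3 to 15 min. The ratios were 0.55 and 0.62 at 60 min and 0.22 and 0.29 at 110 min. At 150 min the cultures differed, culture a being at 0.05 and culture b at 0.73, and at 300 min they were 0.08 and 0.25. The 150 min gap of 0.68 was the widest of HAP4 between its 2 cultures, while the 2 spots of each array differed by at most 0.02 there. In order of their means the times ran 0, 30, 3, 15, 7.5, 60, 150, 110 and 300 min, and the cultures overlapped between neighbours for 3 and 15 min and for all neighbours from 60 min down.

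CAT8, the activator of gluconeogenic genes, had ratios of 3.89 and 3.96 in cultures a and b at 0 min (-3.89 as labelled for the first). They were 2.3 and 2.21 at 3 min, 2.09 and 2.15 at 7.5 min, and 1.94 and 1.78 at 15 min. At 30 min they had dropped to 0.84 and 0.66. CAT8 was thus well above the reference through the first 15 min, and far closer to it at 30 min. The ratios were 0.32 and 0.26 at 60 min and lay between 0.03 and 0.19 from 110 min on. The 2 cultures of neighbouring times did not overlap from 0 to 60 min, and they overlapped among 110, 150 and 300 min.

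SIP4, which codes for a zinc cluster activator whose own gene is a Cat8 target, had ratios of 3.5 and 4.04 at 0 min (-3.5 as labelled for culture a). They were 2.49 and 2.67 at 3 min, 2.02 and 2.43 at 7.5 min, and 2.17 and 2.38 at 15 min. At 30 min they were 0.94 and 1.04, at 60 min 0.52 and 0.43, and from 110 min on they lay between -0.07 and 0.28. The values of SIP4 ran a course like those of CAT8, with overlap between 7.5 and 15 min and among the last 3 times. The log2 ratios of the pair correlated at r = 0.98 over the 18 arrays and at 0.98 over the 16 arrays from 3 min on, values given as a description since the arrays share cultures and the reference.

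ADR1, the activator of ADH2 and of peroxisomal genes, had ratios of 2.67 and 2.89 at 0 min (-2.67 as labelled for culture a). They were 1.41 and 1.62 at 3 min, 1.31 and 1.33 at 7.5 min, 0.61 and 0.89 at 15 min, and 0.32 and 0.26 at 30 min. At 60 min both cultures were below the reference, at -0.36 and -0.21. The ratios were -0.05 and -0.04 at 110 min, -0.25 and -0.08 at 150 min, and 0.28 and 0.34 at 300 min. ADR1 therefore had its lowest mean at 60 min, where its cultures overlapped with those at 150 min. Its 2 cultures at 300 min were above both at 60, 110 and 150 min.

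The 3 DNA-binding subunits of the Hap complex moved less. HAP2 had ratios of 1.33 and 1.05 at 0 min (-1.33 as labelled for culture a), 0.15 and -0.06 at 3 min, -0.35 and -0.69 at 30 min, -0.58 and -0.76 at 60 min, and 0.06 and -0.28 at 300 min. Its values passed below the reference and had their lowest mean at 60 min, when those of HAP3 were 0.41 in both cultures. The cultures of HAP2 overlapped between 30 and 60 min. HAP3 had 0.76 and 0.62 at 0 min (-0.76 as labelled for culture a), and from 3 min on its means spanned 0.46. HAP5 had 0.82 and 1 at 0 min (-0.82 as labelled for culture a), and from 3 min on its means spanned 0.39. Over the 16 arrays from 3 min on, HAP2 and HAP3 correlated at r = -0.25, HAP2 and HAP5 at 0.63, and HAP3 and HAP5 at 0.08.

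The comparison with 0 min asks how glucose-depleted cells changed in fresh glucose medium. There was no culture in fresh medium without glucose, so glucose, the other nutrients and the dilution cannot be told apart. A call needed over 1.7-fold and an adjusted p under 0.01 in one limma fit over the 18 arrays, with Benjamini-Hochberg adjustment over the 5271 genes. Against 0 min, 5 of the 7 genes were lower at 3, 7.5 and 15 min, and 6 of the 7 were lower at 30, 60, 110, 150 and 300 min. Of all genes tested, the share called lower was 13.4% (3 min), 14.6% (7.5 min) and 15.4% (15 min) early on. It was 19.6% (30 min), 22% (60 min), 20.1% (110 min), 20.4% (150 min) and 19.3% (300 min) later on. No member was called higher at any of these times, and with unadjusted p under 0.05 in limma none was higher either. The gene outside the call at the later times was HAP3, and those outside it up to 15 min were HAP3 and HAP5.

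At 3 min HAP4 averaged 1.3, against 3.32 at 0 min, a log2 fold change of -2.02 ± 0.19 (SE, n = 2 cultures each) or 4.06-fold lower (limma adjusted p = 3.13e-06). CAT8 averaged 2.25 at 3 min and 3.92 at 0 min, and was 3.19-fold lower (limma adjusted p = 2.57e-08). ADR1 was 2.41-fold lower (limma adjusted p = 1.62e-06), SIP4 2.29-fold lower (limma adjusted p = 0.000161) and HAP2 2.21-fold lower (limma adjusted p = 3.05e-05). HAP5 had a log2 fold change of -0.76 ± 0.1 (limma adjusted p = 3.54e-05) and HAP3 one of -0.41 ± 0.09 (limma adjusted p = 0.00137), both within the 1.7-fold limit. In bulk RNA, less transcript in each cell and fewer cells that hold it cannot be told apart.

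With the culture a array at 0 min left out, 6 of the 7 genes were lower at 3 min, now with HAP5 at -0.85 ± 0.11 (limma adjusted p = 1e-04), and 6 were lower at each later time. The log2 fold changes at 3 min then were -1.7 for CAT8 and -2.25 for HAP4. With that array as labelled, limma called 0 of the 7 genes at each of the 8 times, and 0 of the 7 had an unadjusted p under 0.05. Of all genes, 31% had an unadjusted p under 0.05 at 3 min and 2.3% at 300 min in that fit. The 3 min differences then were 1.07 ± 1.46 for HAP4, 2.22 ± 1.71 for CAT8, 2.3 ± 1.65 for SIP4 and 1.4 ± 1.22 for ADR1 (log2, SE). The direction of all 7 differences at 3 min therefore depended on how this array was read.

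**Figure D2:**
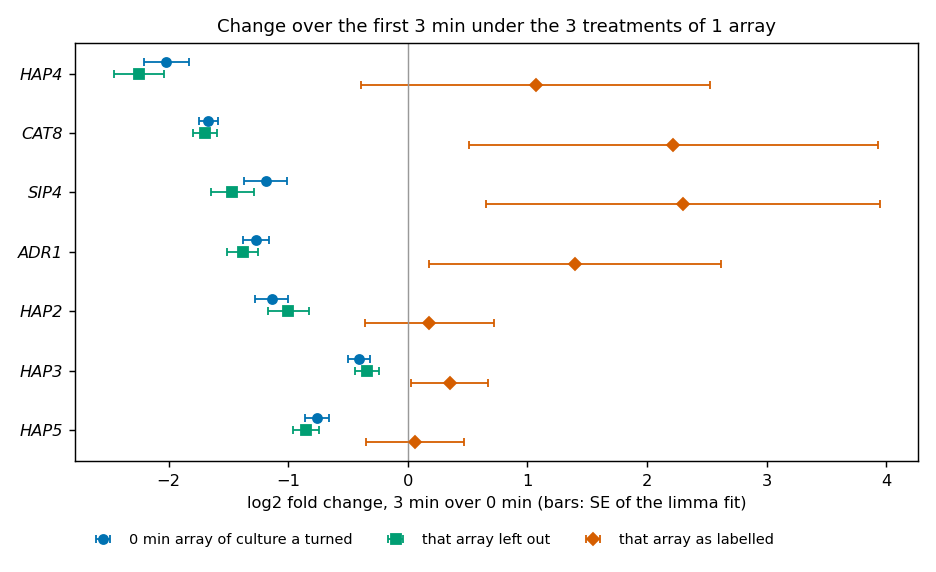
Log2 fold change of 3 min over 0 min (x axis) for the 7 genes (y axis), with the standard error of the limma fit as bars. Circles have the culture a array at 0 min turned, squares leave it out and diamonds take it as labelled. The first 2 give values below 0 for the 7 genes (-2.02 and -2.25 for HAP4), and the third gives values above 0 with wide errors (1.07 ± 1.46 for HAP4).

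At 300 min CAT8 averaged 0.13, against 3.92 at 0 min, and was 13.9-fold lower (log2 fold change -3.8 ± 0.08, limma adjusted p = 5.2e-11). SIP4 was 13.3-fold lower (limma adjusted p = 6.04e-09), HAP4 8.91-fold lower (limma adjusted p = 3.36e-08) and ADR1 5.54-fold lower (limma adjusted p = 3.09e-09). HAP2 was 2.45-fold lower (limma adjusted p = 6.22e-06) and HAP5 1.97-fold lower (limma adjusted p = 2.53e-06). HAP3 averaged 0.11 at 300 min and 0.69 at 0 min, 1.49-fold lower (limma adjusted p = 6.94e-05), within the fold change limit. At 30 min CAT8 was already 9.02-fold lower than at 0 min, SIP4 6.86-fold lower and ADR1 5.63-fold lower, while HAP4 was 3.01-fold lower.

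These values are relative to the typical gene of each array. When each array was instead set to the external control spots, the median of all genes moved by 0.28 at 3 min up to 0.68 at 300 min against 0 min. On that scale HAP4, CAT8, ADR1 and SIP4 stayed lower at 3, 30 and 300 min, HAP5 was no longer called at 30 min (-0.52) and 300 min (-0.32) nor HAP2 at 300 min (-0.64), and HAP3 turned to 0.14 at 30 min and 0.07 at 300 min.

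CAT8 and SIP4 were the dimmest of the 7. From 110 min on their sample channel read 80 to 198 for CAT8 and 64 to 148 for SIP4, with local background between 39 and 70 on the arrays, and background was not subtracted. Their late ratios near 0 were thus read close to background. Their reference channel was dim on all arrays, at 77 to 260 for CAT8 and 63 to 278 for SIP4. Their early ratios and their folds against 0 min are therefore approximate too and may be too small. With normexp background correction the log2 fold changes at 300 min against 0 min were -3.81 for CAT8 and -3.71 for SIP4. This correction adds an offset of 50, about as large as the local background, so it cannot show how far background affected these folds. HAP4 read between 633 and 15538 in the sample channel, and no spot of the 7 genes was saturated.

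The steps between neighbouring times hold no 0 min value. They are unequal in length, and a change spread over several steps may pass the fold change limit at none of them. ADR1, with means of 1.51 at 3 min and 0.29 at 30 min, was called at no step. With the label kept for the culture a array at 0 min, the spread shared by the fit was wider and 0 members were called at these steps too, whereas leaving out both 0 min arrays kept the counts. Between 3 and 15 min no member was called in limma at either step. With unadjusted p under 0.05, 0 of the 7 genes differed at 7.5 min against 3 min, against 17.1% of all genes. At 15 min against 7.5 min 2 of the 7 were lower, where 16.9% of all genes differed in either direction. The 2 members were ADR1, at -0.58 ± 0.11 (limma adjusted p = 0.0144), and CAT8, at -0.26 ± 0.08 (limma adjusted p = 0.112).

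Between 15 and 30 min CAT8 and SIP4 fell. CAT8 averaged 0.75 at 30 min and 1.86 at 15 min, 2.16-fold lower (log2 fold change -1.11 ± 0.08, limma adjusted p = 8.34e-06). SIP4 averaged 0.99 at 30 min and 2.28 at 15 min, 2.44-fold lower (log2 fold change -1.29 ± 0.18, limma adjusted p = 0.000558). These 2 of the 7 genes were called lower, against 3.4% of all genes tested, and both calls held with each array of the 2 times left out and with both 0 min arrays left out.

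HAP4 went the other way over the same step. It averaged 1.73 at 30 min and 1.19 at 15 min, and the 2 cultures at 30 min were above the 2 at 15 min. The log2 fold change of 0.54 ± 0.19 did not pass the thresholds (limma adjusted p = 0.0688), and 0.228% of all genes were called higher at this step. With culture as a block the limma adjusted p was 0.00908, and the fold change of 1.46 stayed under the limit. ADR1 (-0.46 ± 0.11, limma adjusted p = 0.0128) and HAP2 (-0.52 ± 0.14, limma adjusted p = 0.0241) had lower means at 30 min without being called.

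Between 30 and 60 min HAP4 fell. It averaged 0.58 at 60 min and 1.73 at 30 min, 2.22-fold lower (log2 fold change -1.15 ± 0.19, limma adjusted p = 0.000852), as 1 of the 7 genes against 3.24% of all genes. The call held with each of the 4 arrays left out in turn. CAT8 (-0.46, limma adjusted p = 0.00146) and ADR1 (-0.58, limma adjusted p = 0.00213) passed the p threshold at this step but not the fold change limit.

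After 60 min no member was called between neighbouring times in limma. Counts with an unadjusted p under 0.05 were 3 of 7 at 110 min against 60 min (HAP3 and CAT8 lower, HAP2 higher), 0 of 7 at 150 min against 110 min and 1 of 7 at 300 min against 150 min. Of all genes, 36.4%, 7.82% and 11.5% had an unadjusted p under 0.05 at these steps, so the member counts were near the shares of all genes. HAP3 was at -0.46 ± 0.09 (log2 fold change) at 110 min against 60 min (limma adjusted p = 0.00201), within the fold change limit. ADR1 had a difference of 0.48 ± 0.11 at 300 min against 150 min (limma adjusted p = 0.0634).

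**Figure D3:**
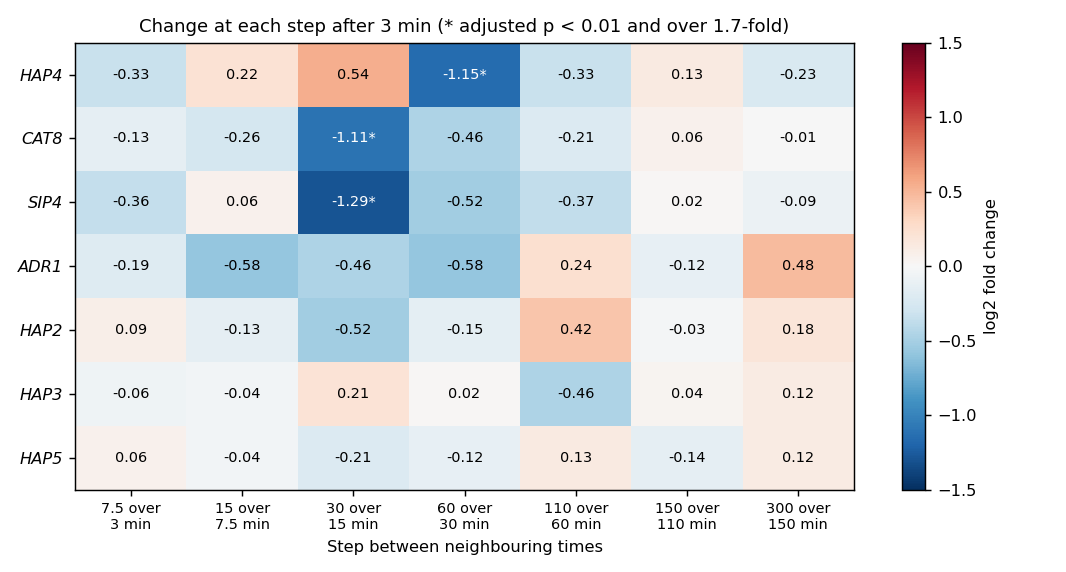
Log2 fold change of the 7 genes (rows) at the 7 steps between neighbouring times after 3 min (columns), with the later time over the earlier one. Asterisks mark the 3 changes past both thresholds, which are CAT8 (-1.11) and SIP4 (-1.29) at 30 over 15 min and HAP4 (-1.15) at 60 over 30 min.

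Late growth was also set against the early response. At 300 min 4 of the 7 genes were lower than at 3 min, against 13.7% of all genes. SIP4 was 5.83-fold lower (limma adjusted p = 2.73e-07), CAT8 4.36-fold lower (limma adjusted p = 3.37e-09), ADR1 2.3-fold lower (limma adjusted p = 2.05e-06) and HAP4 2.19-fold lower (limma adjusted p = 0.000278). HAP2, HAP3 and HAP5 had log2 fold changes of -0.15, -0.17 and -0.21 in this comparison, which did not pass and which were 0.21, 0.19 and 0.15 on the scale of the external controls.

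Against 30 min, HAP4 was 2.96-fold lower at 300 min (limma adjusted p = 4.21e-05) and SIP4 1.94-fold lower (limma adjusted p = 0.00109), 2 of the 7 genes against 6.58% of all genes. The SIP4 call was lost without the culture b array at 30 min (-0.91, limma adjusted p = 0.0107) and without the culture a array at 300 min (-0.86, limma adjusted p = 0.012), and on the scale of the external controls (-0.75). CAT8 was 1.54-fold lower (limma adjusted p = 8.26e-05), and ADR1 had a log2 fold change of 0.02.

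The target genes of the activators were described with lists drawn from general knowledge of each activator. Of 23 respiratory chain and citric acid cycle genes known as Hap2/3/4/5 targets, 21 were lower and 0 higher at 3 min against 0 min, against 13.4% of all genes lower, with a median log2 fold change of -1.64, where the median over all genes was -0.01. Without the culture a array at 0 min 22 were lower, and with it as labelled 1 was lower (IDH2, log2 fold change -1.38, limma adjusted p = 0.00515) and the median was 0.46. SDH1, a subunit of succinate dehydrogenase, had log2 ratios of 4.04 and 3.98 at 0 min, 0.56 and 0.77 at 3 min, and -0.24 and -0.14 at 15 min. CYC1, the major cytochrome c gene, had 2.65 and 2.43 at 0 min, 0.72 and 0.86 at 3 min, -1.09 and -1.32 at 60 min, and 0.12 and -0.05 at 300 min. Both were thus near or under the reference by 15 min, when HAP4 was at 1.12 and 1.25 and CAT8 and SIP4 were still above 1.7. KGD1, a subunit of alpha-ketoglutarate dehydrogenase, was at -0.01 and 0 by 3 min, and COX6, a subunit of cytochrome c oxidase, was at 0.32 and 0.41.

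A few citric acid cycle genes were higher at 30 min than at 15 min. A link between these genes and the HAP4 values was not tested. Between 15 and 30 min 3 of the 23 Hap2/3/4/5 targets were higher and 0 lower, against 0.228% and 3.4% of all genes, with a list median of 0.02 and a median of 0 over all genes. The 3 genes were those of aconitase and of both subunits of the mitochondrial isocitrate dehydrogenase. ACO1 had ratios of -0.41 and -0.37 at 15 min, 0.52 and 0.67 at 30 min, and -1.42 and -1.23 at 60 min. IDH1 had -0.22 and -0.19 at 15 min, 0.55 and 0.93 at 30 min, and -0.73 and -0.47 at 60 min. IDH2 had -0.5 and -0.48 at 15 min, 0.27 and 0.4 at 30 min, and -0.68 and -0.52 at 60 min. In all 3 genes the 2 cultures at 30 min were above both cultures at 15 and at 60 min. ACO1 was 1.97-fold higher (limma adjusted p = 0.00224), IDH1 1.93-fold higher (limma adjusted p = 0.00642) and IDH2 1.77-fold higher (limma adjusted p = 0.00074) at 30 min against 15 min. The ACO1 and IDH1 calls were lost when any 1 of the 4 arrays was left out (adjusted p of 0.0108 to 0.0266 and of 0.0109 to 0.0748 in limma), and the IDH2 call was lost without the culture b array at 30 min (adjusted p = 0.0121).

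Between 30 and 60 min 4 of the 23 were lower and 1 higher, where 3.24% of all genes were lower and 3.23% higher. ACO1 was 3.77-fold lower (limma adjusted p = 1.1e-05), CIT1, the citrate synthase gene, 3.05-fold lower (limma adjusted p = 7.66e-05), IDH1 2.54-fold lower (limma adjusted p = 0.000419) and IDH2 1.91-fold lower (limma adjusted p = 0.000171), the last not called on the scale of the external controls (-0.68). The gene that was higher was LPD1, which codes for dihydrolipoamide dehydrogenase (1.78-fold, limma adjusted p = 0.000512). Between 60 and 110 min 4 of the 23 were higher and 0 lower, against 3.81% and 1.21% of all genes. CYC1 was 2.48-fold higher (limma adjusted p = 1.45e-05), CIT1 2.09-fold higher (limma adjusted p = 0.00164), ACO1 1.97-fold higher (limma adjusted p = 0.00171) and CYT1, the cytochrome c1 gene, 1.94-fold higher (limma adjusted p = 0.000411). The CIT1 call at this step was lost without the culture a array at 60 min or the culture b array at 110 min, and the ACO1 call without either of these or without the culture a array at 110 min. HAP4 had lower means at 110 min than at 60 min over the same step, by a log2 fold change of -0.33 ± 0.19 (limma adjusted p = 0.255).

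At 300 min against 3 min 12 of the 23 were lower and 1 higher, against 13.7% and 13.6% of all genes, with a median of -0.77, where the median over all genes was -0.01. The largest were SDH4, a succinate dehydrogenase subunit gene (3.5-fold lower, limma adjusted p = 5.68e-05), RIP1, the Rieske iron-sulphur protein gene (2.77-fold lower, limma adjusted p = 7.58e-07), QCR8, a cytochrome bc1 subunit gene (2.6-fold lower, limma adjusted p = 5.94e-05), and SDH2 (2.15-fold lower, limma adjusted p = 3.38e-06), while IDH2 was 1.97-fold higher (limma adjusted p = 2.83e-05). The count of 12 was 5 without the culture b array at 3 min, 6 without the culture a array at 300 min and 3 on the scale of the external controls. With the label kept for the culture a array at 0 min it was 0, as the wider spread also took calls between later times from the other lists.

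At 15 min the gluconeogenic targets of Cat8 and Sip4 had a median log2 ratio of 1.95 in both cultures, and the respiratory targets one of -0.41 in culture a and -0.19 in culture b. Of the 11 gluconeogenic genes, 10 were lower at 3 min against 0 min, against 13.4% of all genes, with a median log2 fold change of -1.3 (all genes -0.01). The count was 10 without the culture a array at 0 min and 0 with it as labelled (median 2.66). Their median log2 ratio in cultures a and b was 3.84 and 4.4 at 0 min, 2.84 and 3.02 at 3 min, 1.95 and 1.95 at 15 min, 0.67 and 0.7 at 30 min, and 0.02 and 0.06 at 300 min. The list thus stood between its 0 min and 300 min levels over the first 15 min, as CAT8 and SIP4 did. At 30 min against 15 min 7 of the 11 were lower and 0 higher, against 3.4% and 0.228% of all genes, with a median of -0.99 (all genes 0).

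PCK1, which codes for phosphoenolpyruvate carboxykinase, the first committed step of gluconeogenesis, had 3.07 and 3.46 at 0 min, 2.98 and 3.02 at 3 min, 1.08 and 1.06 at 15 min, and 0.19 and 0.33 at 30 min. FBP1, the fructose-1,6-bisphosphatase gene, had 3.56 and 3.88 at 0 min, 2.14 and 2.69 at 3 min, 1.01 and 0.98 at 15 min, and 0.43 and 0.39 at 30 min. ICL1, the isocitrate lyase gene of the glyoxylate cycle, had 3.88 and 4.42 at 0 min, 1.95 and 2.35 at 15 min, and 0.67 and 0.7 at 30 min. Spots of ICL1 were saturated in culture b at 0 min. The lactate transporter gene JEN1 had 1.98 and 2.09 at 15 min and 1.03 and 1.06 at 30 min, and the malate synthase gene MLS1 had 2.01 and 2 at 15 min and 1.18 and 1.18 at 30 min.

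The largest called drops of this list at 30 min against 15 min were those of ACS1, an acetyl-CoA synthetase gene (3.78-fold, limma adjusted p = 1.46e-06), ICL1 (2.77-fold, limma adjusted p = 0.000382), CAT2, a carnitine acetyltransferase gene (2.61-fold, limma adjusted p = 0.00019), and SFC1, a mitochondrial succinate-fumarate carrier gene (2.43-fold, limma adjusted p = 0.000797). The SFC1 call was lost without the culture b array at 15 min or that at 30 min. The ACS1 ratios of 1.28 and 1.26 at 3 min were below its 1.75 and 1.66 at 7.5 min. At 300 min against 3 min 10 of the 11 genes were lower, against 13.7% of all genes, with a median of -2.91, led by SFC1 (11.1-fold, limma adjusted p = 3.91e-08), MLS1 (10.6-fold, limma adjusted p = 9.8e-07), CAT2 (10.6-fold, limma adjusted p = 1.84e-08) and IDP2, a cytosolic isocitrate dehydrogenase gene (8.85-fold, limma adjusted p = 4.57e-09).

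**Figure D4:**
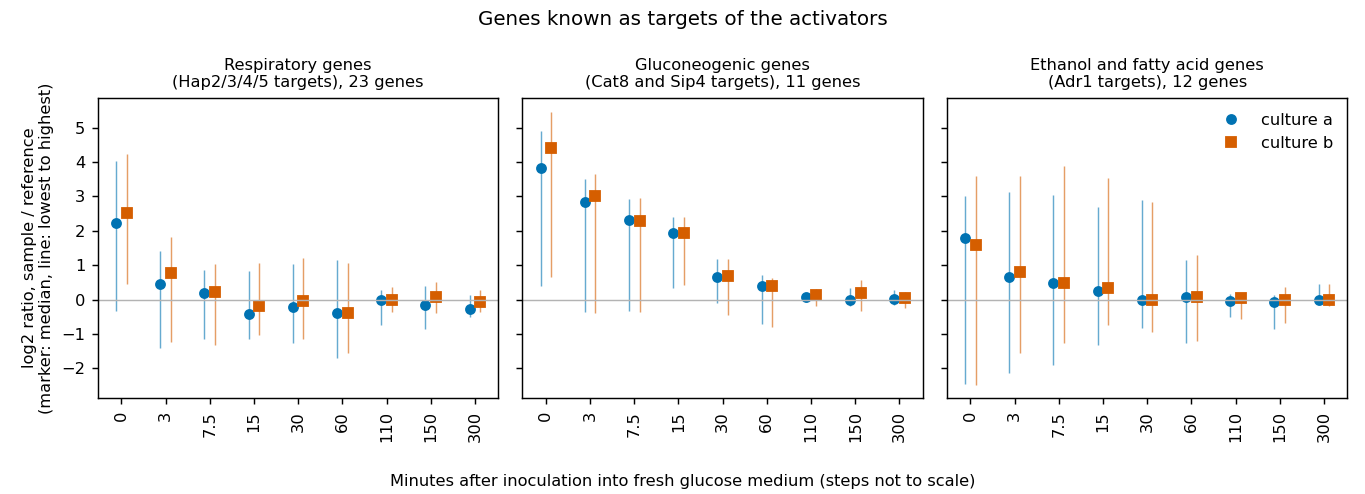
Median log2 ratio of sample over reference (markers) and lowest to highest gene (lines) for the target genes of the 3 kinds of activator, at the 9 times (x axis, in minutes, not to scale) in culture a (circles) and culture b (squares). The median of the respiratory genes is below 1 from 3 min on, and that of the gluconeogenic genes is 1.95 in both cultures at 15 min and at or below 0.7 from 30 min on.

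Of 12 genes for ethanol, acetate, glycerol and fatty acid use known as Adr1 targets, 6 were lower and 0 higher at 3 min against 0 min, against 13.4% of all genes lower, with a median of -0.93 (all genes -0.01). With the culture a array at 0 min left out 6 were lower, and with it as labelled 0 were (median 0.83). CTA1, the peroxisomal catalase gene, had 1.5 and 1.18 at 0 min, 0.7 and 0.79 at 3 min and 0.07 and 0.18 at 15 min. At 300 min against 3 min 5 of the 12 were lower and 1 higher, against 13.7% and 13.6% of all genes, with a median of -0.69 (all genes -0.01). The largest were ALD4, a mitochondrial aldehyde dehydrogenase gene (about 10.9-fold lower, limma adjusted p = 3.36e-05), POX1, the fatty acyl-CoA oxidase gene (2.89-fold lower, limma adjusted p = 9.24e-08), and ADY2, an acetate transporter gene (2.09-fold lower, limma adjusted p = 3.16e-05). SPS19, a peroxisomal reductase gene, was 2.04-fold lower (limma adjusted p = 1.44e-05) and GUT1, the glycerol kinase gene, 1.94-fold lower (limma adjusted p = 1.44e-06). Spots of ALD4 were over the saturation limit (2 to the power of 15) in both cultures from 3 to 15 min. Its fold is therefore approximate and may be too small. The ADY2 call was lost on the scale of the external controls (-0.7).

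ADH2, the best known Adr1 target, ran against its list. Its ratios were -2.45 and -2.47 at 0 min, -2.14 and -1.56 at 3 min, -1.33 and -0.74 at 15 min, and 0.04 and -0.16 at 300 min, so it was 3.45-fold higher at 300 min than at 3 min (limma adjusted p = 4.15e-05). The ADH2 coding sequence is close to that of ADH1, the abundant fermentative gene, and the part of ADH1 signal in the ADH2 probe was not tested. Between 15 and 30 min 1 of the 12 genes was lower (POX1, 1.72-fold, limma adjusted p = 0.000202), where 3.4% of all genes were. This call was lost with 1 loess curve per array, without the culture b array at 15 min and on the scale of the external controls.

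Among 20 regulators that act on the activators, 4 were lower and 0 higher at 3 min against 0 min, a share near the 13.4% of all genes called lower, with a median of -0.16 (all genes -0.01). They were SIP2, a beta subunit of the Snf1 kinase complex (2.71-fold, limma adjusted p = 2.47e-07), TOS3, a kinase upstream of Snf1 (1.85-fold, limma adjusted p = 9.33e-05), REG1, which targets the Glc7 phosphatase to Snf1 (1.82-fold, limma adjusted p = 0.00064), and BMH2, a 14-3-3 protein gene (1.79-fold, limma adjusted p = 0.00569). On the scale of the external controls 1 of the 20 was lower, and 0 were lower with the label kept for the culture a array at 0 min. At 300 min against 3 min 2 were lower and 5 higher, with a median of 0.23 (all genes -0.01), where 13.7% of all genes were lower and 13.6% higher. NRG1, a glucose repressor gene, had ratios of 3.48 and 3.86 at 0 min, 2.63 and 2.63 at 15 min, 1.64 and 1.46 at 30 min and -0.61 and -0.78 at 300 min. Like HAP4, CAT8, SIP4 and ADR1, it was high at 0 min. It was still at 3.41 and 3.57 at 3 min, when HAP4 was at 1.19 and 1.41 and CAT8 at 2.3 and 2.21. NRG1 was 18.2-fold lower at 300 min than at 3 min (limma adjusted p = 1.11e-08). NRG2, its paralog, was 2.32-fold lower (limma adjusted p = 0.000113), MIG2, a repressor related to Mig1, 2.11-fold higher (limma adjusted p = 2.56e-06), and HXK2, the hexokinase needed for glucose repression, 7.61-fold higher (limma adjusted p = 0.00151). BMH1, a 14-3-3 protein gene, was 2.08-fold higher (limma adjusted p = 2.67e-05), SNF4, the gamma subunit of the Snf1 kinase complex, 1.9-fold higher (limma adjusted p = 3.64e-06), and TUP1, a general corepressor, 1.78-fold higher (limma adjusted p = 0.000623). The HXK2 call was lost without the culture a array at 3 min (adjusted p = 0.0168), and its spots were saturated in culture b at 300 min, so the fold is approximate. The 2 cultures of HXK2 differed widely at 0 min, with -3.71 and -0.92.

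Of 11 other transcription factors of respiratory, gluconeogenic and fatty acid genes, 2 were lower and 0 higher at 3 min against 0 min, a share near the 13.4% of all genes called lower. They were MSN4, a general stress activator (4.67-fold, limma adjusted p = 1.19e-08), and GSM1 (2-fold, limma adjusted p = 2.98e-07). With the label kept for the culture a array at 0 min, 0 were lower and 1 higher. Of the 11, 7 were lower and 0 higher at 300 min against 3 min, where 13.7% of all genes were lower and 13.6% higher, with a median of -0.78 (all genes -0.01). The largest were ROX1, a repressor of hypoxic genes (5.51-fold, limma adjusted p = 2.88e-05), GSM1 (3.74-fold, limma adjusted p = 2.4e-09), ERT1, a regulator of ethanol and gluconeogenic genes (2.25-fold, limma adjusted p = 2.57e-07), and HAP1, the haem-responsive activator (1.82-fold, limma adjusted p = 0.000548). The count of 7 was 4 without the culture b array at 3 min, 3 without the culture a array at 300 min and 3 on the scale of the external controls. HAP1 was among the calls lost in each of these settings.

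The genes most alike to the 4 activators with a range over 2 were found by Pearson correlation of log2 ratios over the 18 arrays. CAT8 was closest to YNL194C (r = 0.996), IDP2 (0.995), RIM101 (0.993), ASP3-3 (0.992) and CAT2 (0.992), and each of these stayed at or above 0.983 over the 16 arrays from 3 min on. SIP4 was closest to SNO4 (0.993), ICL1 (0.992), ICS2 (0.992), JEN1 (0.991) and YNL195C (0.991). ADR1 was closest to LEU5 (0.985), ECM13 (0.985), HAL1 (0.984), YGR067C (0.983) and RIM101 (0.981). HAP4 had less close neighbours, namely ULP2 (0.975), GLO2 (0.955), SPG5 (0.955), CUP9 (0.954) and RDS2 (0.954), and over the 16 arrays from 3 min on these 5 were between 0.844 and 0.925. Over those 16 arrays alone the 5 closest to HAP4 were other genes, NSA2 (0.966), YVH1 (0.959), RPO31 (0.956), MOD5 (0.955) and HAS1 (0.955). The closest genes of the other activators changed as well. The 5 closest to ADR1 were all other genes, led by WAR1 (0.984) and ADH3 (0.983). Only YNL194C stayed among the 5 closest to CAT8, and only SNO4 among those of SIP4. ASP3-3 is 1 of a set of near-identical copies, which its probe may not tell apart. The arrays share cultures, the reference and the dyes, so these coefficients are a description.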

How the data were processed

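Total RNA of 18 samples was amplified, labelled and hybridised by the authors on spotted two-colour oligonucleotide arrays against a common reference. The deposited scanner files hold spot intensity means in both channels, and the deposited table holds log2 ratios of sample over reference after the authors' print-tip loess. The methods credit this step to the marray package, and the submitters' processing notes name limma 2.12.0, which the methods used for p-values. The present values were computed from the intensities by print-tip loess in limma 3.58.1 under R 4.3.3 (span 0.4, no background correction, control spots and spots over 2 to the power of 15 at weight 0), and spots were averaged. They correlated with the deposited log2 ratios at 0.999774 or more on every array, and for the 7 genes differed from them by at most 0.032. Medians of the deposited columns lay between -0.0106 and 0.0225. Between 97.9% and 99.3% of gene spots were above background by over 2 SDs, and precision is limited by how many arrays there are.

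Of 6388 gene probes 5326 had a gene name, 5255 symbols as listed in R64 and 60 through an older name. Mitochondrial genes, transposable elements and YDL196W were left out, and of several probes of a gene the brighter was kept. One limma fit (lmFit, eBayes) had a coefficient per time and 9 residual degrees of freedom, with 17 comparisons adjusted separately by Benjamini-Hochberg. Culture labels pair the samples, since a and b are separate cultures sampled through time. The culture differences of 2 times correlated at 0.258 to 0.902 over the 36 pairs of times. The p-values rest on the differences between the 2 cultures at each time, pooled over the 9 times. In eBayes the spread of each gene is also drawn towards that of the other genes. Since culture and dye go together, this spread may hold dye bias too.

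Members and lists were chosen with earlier results of these data known. Named genes are the 7 members, a set of 12 standard targets (described where they add to a list), the 4 called genes of each list with the largest change and the 5 genes most alike to each member with a range over 2. BMH1, SNF4, TUP1, LPD1, SPS19, GUT1 and the IDH2 rise were added after their values were seen, as were the per-array values of ACO1, IDH1, IDH2, NRG1 and HXK2. The fit was tested on simulated data. Alternatives were the culture a array at 0 min left out or read as labelled, culture as a block, the deposited values, 1 loess curve per array, normexp (offset 50), external controls, a filter on the dimmest 25% of genes, unnamed probes, the arrays of 2 times and each array left out. The 6 external control probes, the fit without 0 min arrays and the calls without a fold change limit were chosen after seeing the data.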

Additional observations from a re-analysis of the deposited data

How the results depend on the processing

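With culture as a replicate block the counts of members lower were the same in each of the 12 comparisons counted (5 at 3 min and 6 at 300 min against 0 min), and the pairing changed no call of a member. The deposited values, 1 loess curve per array, normexp and the test with unnamed probes gave the same 12 counts.

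With the label kept for the culture a array at 0 min, 0 members were lower in each of the 12 comparisons, those between later times included, since the 2 arrays at 0 min then widen the shared spread. The log2 fold changes that turned positive were, at 3 min against 0 min, 0.18 for HAP2, 0.35 for HAP3, 1.07 for HAP4, 0.06 for HAP5, 2.22 for CAT8, 1.4 for ADR1 and 2.3 for SIP4. At 30 min they were 0.46 for HAP3, 1.5 for HAP4, 0.72 for CAT8, 0.17 for ADR1 and 0.72 for SIP4, and at 300 min 0.03 for HAP2, 0.18 for HAP3, 0.09 for CAT8 and 0.2 for ADR1. Leaving out both 0 min arrays kept the counts between later times.

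A filter on the dimmest 25% of genes removed CAT8, SIP4 and HAP5 and left 3 members lower at each time against 0 min, 0 at 30 against 15 min, 2 at 300 against 3 min and 1 at 300 against 30 min. The shift to external controls left 5 members lower at 3 and 15 min, 4 at 7.5 min, 5 at 30, 60, 110 and 150 min and 4 at 300 min against 0 min, and 1 at 300 against 30 min. It turned HAP3 to 0.14 and 0.07 (30 and 300 min against 0 min) and HAP2, HAP3 and HAP5 to 0.21, 0.19 and 0.15 (300 against 3 min). Without the fold change limit 7 members were lower against 0 min at each time but 60 min, where 6 were. Of all genes 26% (3 min) to 33.3% (60 min) were then lower. At 60 against 30 min 3 members were lower (11.3% of all genes). At 110 against 60 min 1 was (5.35%), and at 300 against 30 min 3 were (18%). Leaving out 1 array at a time gave 5 to 6 members lower at 3, 7.5 and 15 min, 6 at 30, 60 and 300 min and 6 to 7 at 110 and 150 min against 0 min, 2 at 30 against 15 min, 1 at 60 against 30 min, 4 at 300 against 3 min and 1 to 2 at 300 against 30 min. With 1 array left out HAP2 at 300 against 3 min ranged over -0.32 to 0.02, the last without the culture b array at 300 min. With only the 2 times in the fit SIP4 was not called at 3 min against 0 min (adjusted p = 0.0182, limma).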
